A study of Mus musculus with 8 samples.

Results

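The metallothionein genes *Mt1*, *Mt2* and *Mt3* were followed in RNA from the superior and inferior parts of the mouse retina after hyperoxia. They were taken from the platform annotation as the probe sets that list exactly 1 gene symbol equal to one of these names. Each of the 3 genes had 1 such probe set, out of 21789 probe sets with 1 symbol, which stand for 19938 genes, and 28853 probe sets in all. Retinal RNA came from C57BL/6J mice, a pigmented inbred strain that the study calls vulnerable to hyperoxia. It was measured on the Affymetrix Mouse Gene 1.0 ST array, whose probe sets sample the exons of a gene. The 4 groups were the hyperoxia-exposed inferior retina, the control inferior retina, the hyperoxia-exposed superior retina and the control superior retina, with 2 arrays each. Exposed mice breathed 75% oxygen for 14 days from an age of 83 to 90 days, control mice were kept in normoxia to the same age, and all were raised and kept in dim cyclic light. Every sample pooled retinal tissue of 1 male and 1 female, and whether the superior and inferior samples of a number came from the same animals is not given in the sources used here.

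The values were log2 expression values as the authors deposited them, with array medians from 6.98 to 7.05. Rod photoreceptor genes averaged log2 values from 12.38 to 12.74 over 6 measured genes on the 8 arrays. *Tbx5*, which patterns the dorsal part of the eye, lay between 4.99 and 5.34 on the 4 inferior arrays and between 6.29 and 6.48 on the 4 superior arrays. Lens transcripts, 15 genes averaged per array, reached a mean log2 value of 10.06 on control inferior replicate 2 and lay between 6.00 and 7.24 on the other arrays. Comparisons were tested with limma, a linear model that borrows strength across probe sets to estimate the spread of each. A probe set passed where its Benjamini-Hochberg adjusted p, taken over all 28853, was under 0.05. These p-values measure only how samples of a group differed, and the precision is limited by having 2 arrays in each. Whether groups of 2 arrays overlap is given as a description, since so few arrays can lie apart by chance. In such bulk RNA, more RNA per cell and more cells of a type cannot be told apart.

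Metallothioneins are small proteins whose many cysteines bind zinc and copper and can react with oxidants. *Mt1* and *Mt2* are expressed in many tissues and are induced by metals, glucocorticoids, inflammatory cytokines and oxidative stress, while *Mt3* is enriched in the nervous system and is known to respond little to metals. *Mt4* belongs to stratified epithelia. Free zinc activates the transcription factor MTF1, which binds short metal response elements in the promoters of *Mt1* and *Mt2*. In the retina, metallothioneins have been described in Müller glia and in the retinal pigment epithelium.

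The promoters of the genes are shown because *Mt1* and *Mt2* both rose in the exposed inferior retina while *Mt3*, a neighbour in the same gene cluster, did not pass the test. A larger change of *Mt1* than of *Mt3* was not shown, and the part of promoter sequence in these changes was not tested. RefSeq promoter windows were matched for all 3 genes by symbol, on the plus strand of chromosome 8 in the mouse build GRCm38.p6. Each window holds 250 bases before and 50 bases after the annotated start, at chr8:94172368-94172667 for *Mt2*, chr8:94178839-94179138 for *Mt1* and chr8:94152357-94152656 for *Mt3*. Capitals mark the core of the metal response element, searched on both strands as TGCACNC or TGCGCNC.
Mt2: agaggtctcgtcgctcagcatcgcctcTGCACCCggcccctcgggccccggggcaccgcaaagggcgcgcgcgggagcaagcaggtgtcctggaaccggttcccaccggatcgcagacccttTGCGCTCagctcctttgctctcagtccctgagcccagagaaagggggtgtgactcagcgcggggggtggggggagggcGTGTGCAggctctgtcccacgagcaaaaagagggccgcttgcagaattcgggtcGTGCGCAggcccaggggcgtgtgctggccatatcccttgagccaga
Mt1: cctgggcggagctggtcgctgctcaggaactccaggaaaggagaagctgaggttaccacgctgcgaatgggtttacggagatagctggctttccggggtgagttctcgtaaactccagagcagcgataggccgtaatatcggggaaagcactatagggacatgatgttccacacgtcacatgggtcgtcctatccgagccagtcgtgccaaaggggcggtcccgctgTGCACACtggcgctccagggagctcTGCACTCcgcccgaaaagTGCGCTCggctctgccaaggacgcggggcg
Mt3: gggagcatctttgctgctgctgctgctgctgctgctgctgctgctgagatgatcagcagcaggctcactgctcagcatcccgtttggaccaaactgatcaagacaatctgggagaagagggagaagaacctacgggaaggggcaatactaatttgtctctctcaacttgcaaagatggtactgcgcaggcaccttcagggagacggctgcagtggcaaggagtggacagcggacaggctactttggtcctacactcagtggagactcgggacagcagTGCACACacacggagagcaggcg
The core occurred 4 times in the *Mt2* window, 3 times in the *Mt1* window and 1 time in the *Mt3* window. Among 32851 promoter windows of the same length, 25.7% held it at least 1 time, 1.97% at least 3 times and 0.517% at least 4 times. In *Mt2* the matches began at positions -223, -128, -50 and 5 from the annotated start, and in *Mt1* at -23, 3 and 21. Each gene had 1 annotated start here, and whether transcription begins there was not tested. The counts and positions depend on it. The *Mt4* window held 1 match. Bases outside the windows were not searched, for this core or for those that follow, so a site beyond an edge would be missed. An antioxidant response element core, TGACNNNGC on either strand, was found 1 time in the *Mt2* window, at -79, and in 12.4% of all windows. The STAT site TTCNNNGAA occurred in 0 of the 3 windows and in 8.3% of all windows. The hypoxia response element core, ACGTG or GCGTG, occurred 2 times each in the *Mt2* and *Mt1* windows and in 43.8% of all windows, and its match at -52 in *Mt2* overlaps the metal response element core at -50.

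In the inferior retina *Mt2* and *Mt1* were both higher after hyperoxia, *Mt2* by 2.41-fold and *Mt1* by 1.57-fold, and *Mt3* did not pass the test. *Mt2* had log2 values of 11.05 and 11.21 in the hyperoxia-exposed inferior retina, against 9.79 and 9.92 in the control inferior retina. The exposed arrays lay above both control arrays, and the groups did not overlap. The log2 change was 1.27 (standard error 0.15, 95% confidence interval 0.94 to 1.61, adjusted p = 0.00929 by limma), which ranked 29 of 28853 by size. *Mt1* had log2 values of 11.54 and 11.61 in the hyperoxia-exposed inferior retina and of 10.85 and 11.00 in the control inferior retina. Both exposed arrays again lay above both control arrays, and the log2 change was 0.65 (standard error 0.09, 95% confidence interval 0.44 to 0.86, adjusted p = 0.0256). Of all probe sets, 0.492% passed in this comparison in either direction. *Mt1* and *Mt2* are among the genes that the study selected on these samples, so the tests are no independent evidence of their direction.

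*Mt3* had log2 values of 9.35 and 9.53 in the hyperoxia-exposed inferior retina and of 9.22 and 9.32 in the control inferior retina. The groups did not overlap, but the lowest exposed and the highest control array were close. The log2 change was 0.17 (95% confidence interval -0.09 to 0.44, adjusted p = 0.702), an interval that reaches from a fold of 0.94 to one of 1.36. *Mt4*, the family member of stratified epithelia, had a log2 change of 0.21 (adjusted p = 0.628).

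The call for *Mt2* in the inferior retina was lost without hyperoxia inferior replicate 1 (adjusted p = 0.0577) or hyperoxia inferior replicate 2 (adjusted p = 0.114). That for *Mt1* was lost without control inferior replicate 1 (adjusted p = 0.113), control inferior replicate 2 (adjusted p = 0.0541), control superior replicate 1 (adjusted p = 0.0594), control superior replicate 2 (adjusted p = 0.0594), hyperoxia inferior replicate 1 (adjusted p = 0.0985) or hyperoxia inferior replicate 2 (adjusted p = 0.189). Their log2 changes ran from 1.19 to 1.35 for *Mt2* and from 0.58 to 0.72 for *Mt1* over the 8 fits that left out 1 array each. Without control inferior replicate 2, the array with high lens transcripts, the log2 change was 1.34 for *Mt2* and 0.72 for *Mt1*.

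**Figure D1:**
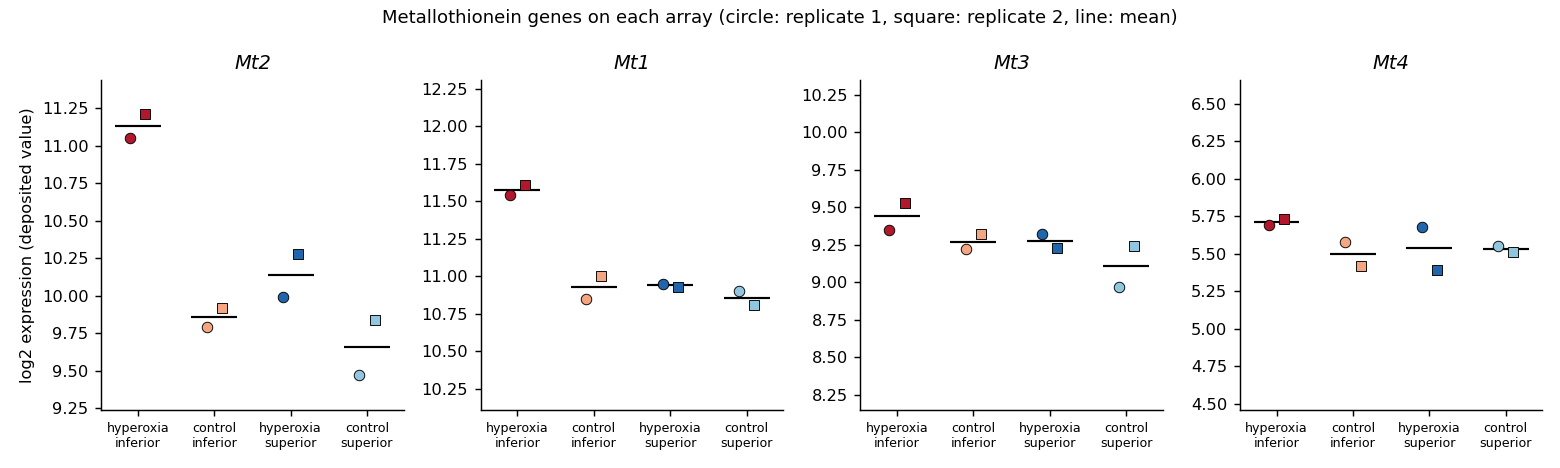
Log2 expression of *Mt2*, *Mt1*, *Mt3* and *Mt4* (vertical axes, equal spans) on each of the 8 arrays by group (horizontal axes), with points for single arrays and lines for group means. *Mt2* and *Mt1* are highest on both hyperoxia-exposed inferior arrays, at 11.05 and 11.21 for *Mt2* and at 11.54 and 11.61 for *Mt1*.

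In the superior retina the changes were 0.48 for *Mt2* and 0.08 for *Mt1*, beside 1.27 and 0.65 in the inferior retina, and 0 of the 3 genes passed the test, against 0.0173% of all probe sets. *Mt2* had log2 values of 9.99 and 10.28 in the hyperoxia-exposed superior retina and of 9.47 and 9.84 in the control superior retina. The groups did not overlap, but they were less far apart than in the inferior region, and each spread over more than the inferior groups did. The log2 change was 0.48 (standard error 0.15, 95% confidence interval 0.14 to 0.81), with an unadjusted p of 0.0109 and an adjusted p = 0.762 by limma. It was 0.29 without control superior replicate 1, 0.33 without hyperoxia superior replicate 2 and 0.66 without control superior replicate 2. For *Mt1* the values were 10.95 and 10.93 in the hyperoxia-exposed superior retina and 10.90 and 10.81 in the control superior retina, a log2 change of 0.08 (95% confidence interval -0.13 to 0.29, adjusted p = 0.957). All 4 of these arrays lay within a narrow band below the exposed inferior arrays. *Mt3* had 9.32 and 9.23 in the hyperoxia-exposed superior retina and 8.97 and 9.24 in the control superior retina, with overlapping groups and a log2 change of 0.17 (adjusted p = 0.921).

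Genes typical of the retinal pigment epithelium, a tissue that can cling to a dissected retina, were higher on the exposed arrays of the superior region. Their mean log2 value over 13 measured genes was 8.67 to 8.81 in the hyperoxia-exposed and 7.56 to 8.11 in the control superior retina, with a median change of 1.13. By limma 9 of the 13 had an unadjusted p under 0.05 there, against 5.59% of all probe sets, and 0 passed the adjusted test. In the inferior region the same list had a median change of -0.06 and ranged from 8.19 to 8.54 in the exposed and from 8.0 to 8.80 in the control retina. Its part in the metallothionein values was not tested.

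The difference between the 2 regional changes was tested as an interaction. It was 0.80 for *Mt2* (standard error 0.21, 95% confidence interval 0.32 to 1.27, unadjusted p of 0.00449, adjusted p = 0.641 by limma) and 0.57 for *Mt1* (standard error 0.13, 95% confidence interval 0.27 to 0.86, unadjusted p of 0.00211, adjusted p = 0.593). Both intervals lie above 0, but neither gene passed over all probe sets, where 0.00347% did. For *Mt3* the difference was 0.01 (95% confidence interval -0.37 to 0.38, adjusted p = 0.998). The fold ratio (FR), the ratio of the exposed to the control level, for *Mt2* was 2.41 in the inferior retina against 1.39 in the superior retina, a fold margin (FM, the inferior minus the superior FR) of 1.02. *Mt1* had an FR of 1.57 in the inferior region against 1.06 in the superior region, an FM of 0.51. *Mt3* had FRs of 1.13 and 1.12, an FM of 0.01. The FRs and FMs of *Mt2* and *Mt1* equal those that the study reported. It selected both genes on these same samples by a p-value and the FM. Their intervals, unadjusted p-values and FMs here are therefore no independent evidence of a regional difference.

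Within the hyperoxia-exposed retinas, *Mt2* was at 11.05 and 11.21 in the inferior and at 9.99 and 10.28 in the superior region. The log2 difference was 1.00 (standard error 0.15, 95% confidence interval 0.66 to 1.33, adjusted p = 0.0641 by limma), a fold of 1.99. *Mt1* differed by 0.63 (standard error 0.09, 95% confidence interval 0.43 to 0.84, adjusted p = 0.0603), a fold of 1.55. Neither passed the threshold in this comparison, where 0.139% of all probe sets did. Both passed with the arrays centred on their medians (adjusted p = 0.0446 for *Mt2* and 0.0429 for *Mt1*). They also passed when only probe sets with 1 symbol were tested (adjusted p = 0.0371 and 0.0358). Both missed the threshold with quantile normalization (adjusted p = 0.0816 for each) and by the methods' t-test (adjusted p = 0.489 and 0.382). Over the 8 fits without 1 array, the differences ran from 0.85 to 1.14 for *Mt2* and from 0.60 to 0.67 for *Mt1*. *Mt3* differed by 0.16 (adjusted p = 0.763).

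In control retinas the inferior and superior regions overlapped for each of the 3 genes, and the share of all probe sets that overlapped was not counted. *Mt2* was at 9.79 and 9.92 in the inferior and at 9.47 and 9.84 in the superior region, a log2 difference of 0.20 (95% confidence interval -0.13 to 0.54, adjusted p = 0.95 by limma). *Mt1* differed by 0.07 (95% confidence interval -0.14 to 0.28, adjusted p = 0.978) and *Mt3* by 0.16 (95% confidence interval -0.11 to 0.43, adjusted p = 0.951). These intervals allow folds up to 1.45 for *Mt2*, 1.21 for *Mt1* and 1.34 for *Mt3* in favour of the inferior region. Without 1 of the control superior arrays the difference of *Mt2* was 0.02 (replicate 1) or 0.38 (replicate 2) and that of *Mt3* 0.02 (replicate 1) or 0.29 (replicate 2). Of all probe sets 0% passed by limma, and 1529 had an unadjusted p under 0.05. By the methods' t-test 0 passed after Benjamini-Hochberg adjustment, a step that the methods do not name.

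**Figure D2:**
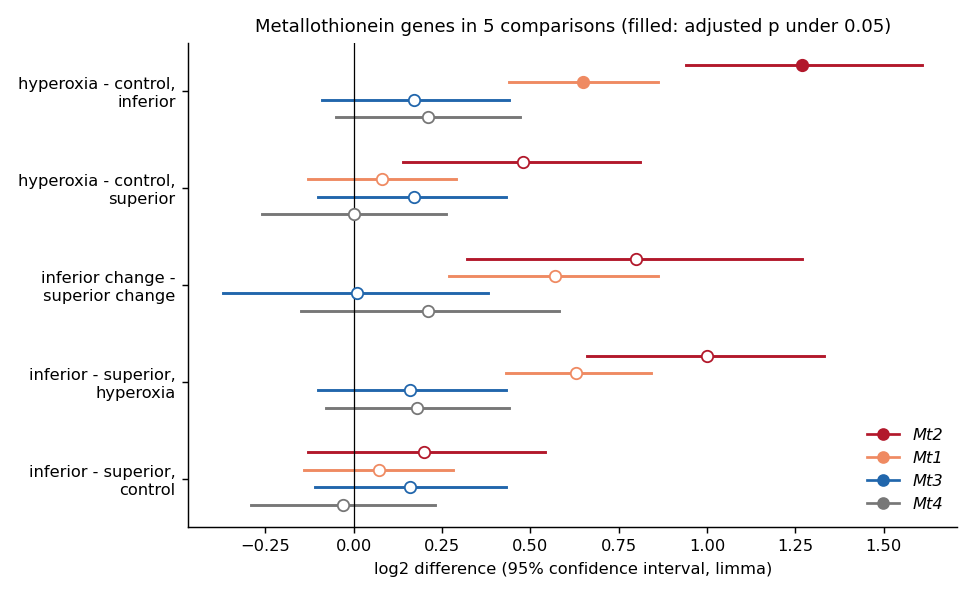
Log2 differences of *Mt2*, *Mt1*, *Mt3* and *Mt4* (horizontal axis) in 5 comparisons (vertical axis), with 95% confidence intervals from limma, where a filled point has an adjusted p under 0.05. The inferior changes of *Mt2*, at 1.27, and *Mt1*, at 0.65, are the only filled points.

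By group mean, *Mt2* was highest in the hyperoxia-exposed inferior retina, at 11.13 ± 0.11 (SD, n = 2), followed by the hyperoxia-exposed superior retina at 10.13 ± 0.20, the control inferior retina at 9.86 ± 0.09 and the control superior retina at 9.66 ± 0.26. The middle pair did not overlap, and its difference was not tested, while the control groups overlapped. For *Mt1* the hyperoxia-exposed inferior retina stood at 11.57 ± 0.05 (SD, n = 2), and the other groups lay at 10.94 ± 0.01 in the hyperoxia-exposed superior, 10.92 ± 0.10 in the control inferior and 10.85 ± 0.06 in the control superior retina, each overlapping the next. *Mt3* ran from 9.44 ± 0.13 (SD, n = 2) in the hyperoxia-exposed inferior retina to 9.11 ± 0.19 in the control superior retina, with 9.27 ± 0.07 in both groups between.

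Over both regions, exposed and control arrays were also compared as 4 against 4. *Mt2* averaged 10.63 ± 0.59 on exposed and 9.76 ± 0.20 on control arrays (SD, n = 4 each), and the lowest exposed array, at 9.99, lay above the highest control array, at 9.92. The difference was 0.87, with p = 0.0286 in a two-sided exact permutation test over 70 splits of the arrays, the smallest p that these splits allow. They ignore region and take the superior and inferior samples as independent. Over the 36 splits that keep the regions apart, the exact p cannot fall below 0.0556. It was 0.0556 for *Mt2* and also for *Mt1*, and 0.111 for *Mt3*. Without any 1 of the 4 control arrays the p of *Mt2* over all splits was 0.0571 to 0.0857 in the exact test. For *Mt1* the difference was 0.37 (two-sided exact permutation test, p = 0.114) and for *Mt3* 0.17 (p = 0.114 in the same exact test), and the exposed and control arrays overlapped for both. In limma the mean of the 2 regional changes was 0.87 for *Mt2* (adjusted p = 0.0102), 0.37 for *Mt1* (adjusted p = 0.0587) and 0.17 for *Mt3* (adjusted p = 0.597), beside 0.568% of all probe sets past the threshold. The call for *Mt2* was lost without hyperoxia inferior replicate 2 (adjusted p = 0.0692) or hyperoxia superior replicate 2 (adjusted p = 0.0549).

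The amounts by which the genes changed were compared within each array, over the 3 pairs of genes. The log2 value of *Mt2* minus that of *Mt1* was -0.48 and -0.40 on the exposed inferior and -0.96 and -0.65 on the exposed superior arrays, against -1.06 and -1.07 on the control inferior and -1.43 and -0.97 on the control superior arrays. It shifted by 0.51 with exposure (two-sided exact permutation test, p = 0.0286, adjusted over 3 pairs p = 0.0429), and the values on all 4 exposed arrays lay above those on all 4 control arrays. The nearest were -0.96 on hyperoxia superior replicate 1 and -0.97 on control superior replicate 2. *Mt2* minus *Mt3* shifted by 0.70 (exact p = 0.0286, adjusted over 3 pairs p = 0.0429), again with no overlap. Over the 36 splits within region both had the smallest possible exact p of 0.0556, or 0.0833 adjusted over 3 pairs, so that a larger change of *Mt2* rests on the splits that ignore region. *Mt1* minus *Mt3* shifted by 0.20 with overlapping arrays (exact p = 0.229, adjusted over 3 pairs p = 0.229), so a larger change of *Mt1* than of *Mt3* was not shown. Without any 1 of the 4 control arrays, the p of *Mt2* minus *Mt1* and of *Mt2* minus *Mt3* was 0.0571 (exact permutation tests). Whether probes of *Mt1* and *Mt2*, whose coding sequences are alike, capture each other's transcripts was not tested.

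**Figure D3:**
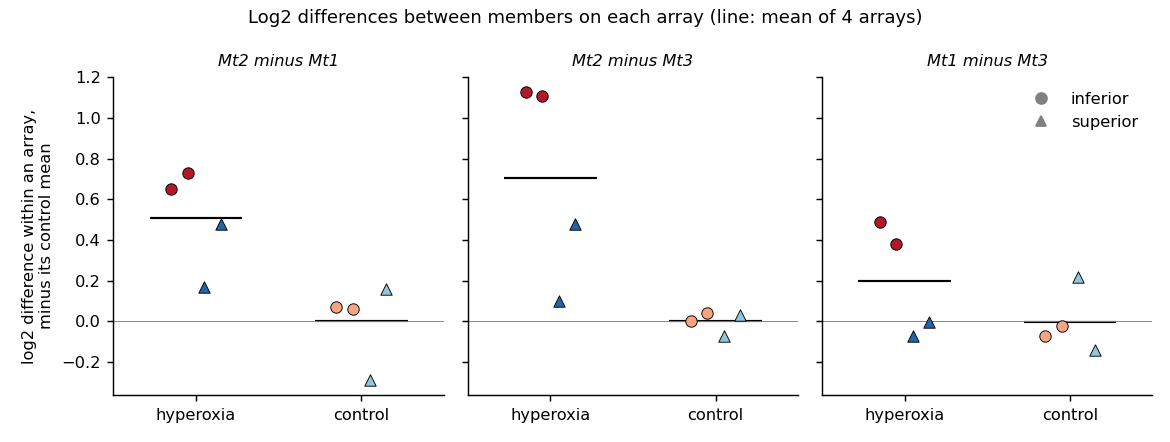
Log2 difference between 2 metallothionein genes on each array, less the mean of that difference over the control arrays (vertical axes), for the 4 exposed and the 4 control arrays (horizontal axes). Circles are inferior and triangles superior arrays, and lines are means, which are shifted by 0.51 for *Mt2* minus *Mt1* and by 0.70 for *Mt2* minus *Mt3*.

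*Mt4*, *Mt3*, *Mt2* and *Mt1* lie next to each other on chromosome 8, in that order in the gene table of GRCm38.p6. Of the 5 protein-coding genes on each side, 9 of 10 were measured. In either region 0 of the 9 passed, against 0.492% (inferior) and 0.0173% (superior) of all probe sets. The log2 changes of these neighbours ran from -0.30, for *Bbs2*, to 0.24, for *Herpud1*, in the inferior retina. In the superior retina they ran from -0.22 to 0.29, and the lowest adjusted p in either region was 0.399. *Nup93*, the neighbour on the side of *Mt1*, had 0.02 in the inferior retina, against 0.65 for *Mt1* and 1.27 for *Mt2*. Over the 8 arrays the log2 values of *Mt1* and *Mt2* correlated at r = 0.94, those of *Mt2* and *Mt3* at 0.81 and those of *Mt1* and *Mt3* at 0.70 (Pearson, given as a description), in points that share arrays and the exposed inferior group.

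**Figure D4:**
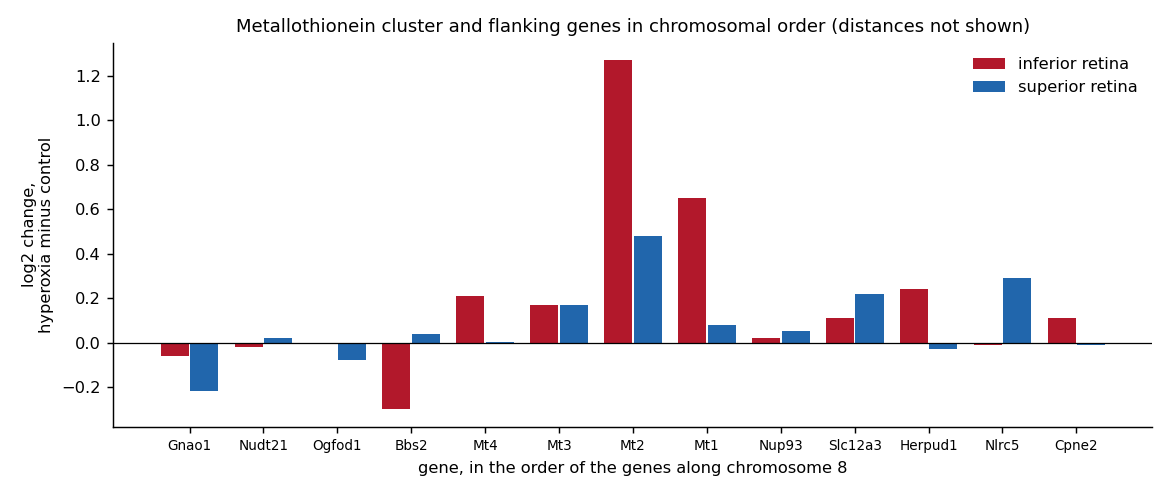
Log2 change after hyperoxia (vertical axis) of the metallothionein genes and the measured genes on either side, in their order along chromosome 8 (horizontal axis), in the inferior and the superior retina. Only *Mt2*, at 1.27 (inferior) and 0.48 (superior), and *Mt1*, at 0.65 in the inferior retina, rise above 0.30.

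Genes that handle the same metals were described from lists, and those for zinc hold the numbered members of each transporter family. Of 10 zinc exporters of the Slc30 family, 0 passed in the inferior retina and their median log2 change was 0.04, beside 0.01 over all probe sets. *Slc30a1*, the zinc exporter that MTF1 also controls, had 0.23 (standard error 0.09, adjusted p = 0.507) in the inferior region and -0.01 (adjusted p = 0.996) in the superior region. Of 14 zinc importers of the Slc39 family, 1 rose and 0 fell, with a median of -0.03. It was *Slc39a1*, at 0.53 (adjusted p = 0.0416), which missed the threshold in each of the 8 fits without 1 array (adjusted p from 0.0621 to 0.234). Of 11 measured copper-handling genes, 1 rose and 0 fell, with a median of -0.03. It was *Cp*, the copper-carrying ferroxidase ceruloplasmin, at 0.69 (adjusted p = 0.0188), and the call was lost without control inferior replicate 1, control inferior replicate 2, hyperoxia inferior replicate 1 or hyperoxia inferior replicate 2. In the superior retina 0 genes of these 3 lists passed.

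Among 8 transcription factors and cofactors known to act on metallothionein genes, 1 rose in the inferior retina, against 0.492% of all probe sets. It was *Stat3*, the factor that carries signals of the interleukin-6 cytokine family. *Stat3* is also among the genes that the study selected on these samples. The log2 change of *Stat3* was 1.26 (standard error 0.09, adjusted p = 0.000931) in the inferior and 0.53 (adjusted p = 0.302) in the superior retina. *Mtf1*, the zinc sensor, had -0.01 (adjusted p = 0.983) in the inferior region and -0.10 (adjusted p = 0.945) in the superior region. The glucocorticoid receptor gene *Nr3c1* had -0.21 (adjusted p = 0.639) and *Nfe2l2*, which encodes the oxidant-responsive factor Nrf2, 0.13 (adjusted p = 0.745) in the inferior retina. These 3 factors were named for their roles with their values known. The part of any of these regulators in the changes of *Mt1* and *Mt2* was not tested.

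Of 12 targets of STAT3, 7 rose and 0 fell in the inferior retina, with a median log2 change of 0.94, and 2 rose in the superior retina, with a median of 0.22. The shares of all probe sets called were 0.492% (inferior) and 0.0173% (superior). *Socs3*, the feedback inhibitor of STAT3 signalling, rose by 1.09 (standard error 0.12, adjusted p = 0.00832) in the inferior retina and had 0.17 (adjusted p = 0.924) in the superior retina, and *Bcl3*, a nuclear cofactor of NF-kappaB, rose by 1.96 (adjusted p = 0.0014) in the inferior retina and had 0.56 (adjusted p = 0.723) in the superior retina. Several genes of this list were selected by the study on these samples, so its count is no independent evidence. Without hyperoxia inferior replicate 2 the inferior count was 4, it was 5 without hyperoxia inferior replicate 1 and 6 or 7 without any other array. In the superior retina the 2 were *Gfap*, the glial filament gene, at 1.25 (adjusted p = 0.0296), and *Osmr*, the oncostatin M receptor gene, at 0.93 (adjusted p = 0.0457), and the count was 0 without any 1 of the 8 arrays. The call for *Socs3* was also lost without hyperoxia inferior replicate 2 (adjusted p = 0.0772). Of 11 measured targets of Nrf2, 0 passed in either region, with median changes of 0.03 (inferior) and 0.10 (superior), and *Hmox1*, which encodes heme oxygenase 1, had 0.58 (adjusted p = 0.134) in the inferior retina. Of 11 measured genes that glucocorticoids induce, 0 rose and 1 fell in the inferior retina, with a median of -0.16. It was *Glul*, glutamine synthetase of Müller glia, which fell by 0.70 on the log2 scale (adjusted p = 0.0416). Among the fits that left out 1 array its call held in the 2 that left out an exposed superior array and was lost in the other 6, with adjusted p from 0.0415 to 0.172 over all 8. The part of STAT3, Nrf2 or glucocorticoids in the changes of *Mt1* and *Mt2* was not tested.

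**Figure D5:**
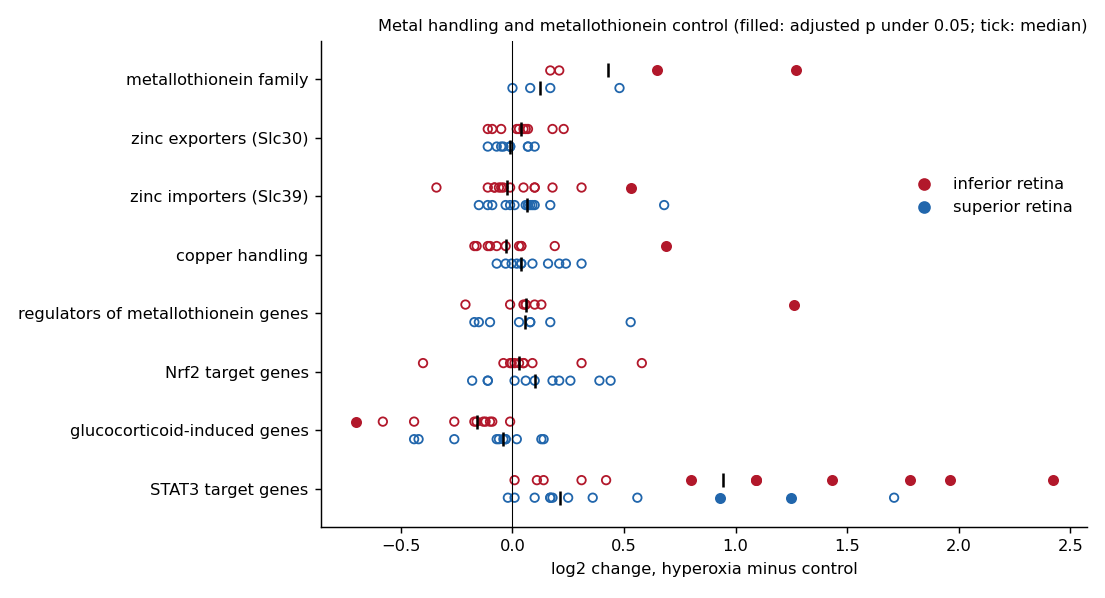
Log2 change after hyperoxia (horizontal axis) of the genes of 8 lists (vertical axis) in the inferior and the superior retina, where a filled point has an adjusted p under 0.05 and a tick marks the median of a list. The zinc and copper lists have medians from -0.03 to 0.07, and the STAT3 target list has a median of 0.94 in the inferior retina and of 0.22 in the superior retina.

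Markers of cells that can express metallothioneins were given for each group. The mean log2 value of 12 Müller glia genes was 10.65 to 10.80 in the hyperoxia-exposed inferior, 10.64 to 10.66 in the control inferior, 10.53 to 10.66 in the hyperoxia-exposed superior and 10.55 to 10.60 in the control superior retina, and in the inferior retina *Crym*, which encodes a thyroid hormone-binding protein, rose and *Glul* fell. For 12 genes of microglia and macrophages the ranges were 7.79 to 7.86, 6.57 to 6.58, 6.94 to 6.96 and 6.44 to 6.50 in the same order of groups. Of these 12, 9 rose in the inferior retina (7 to 9 without any 1 array), against 0.492% of all probe sets that passed there. Several genes of this list were selected by the study on these samples, so its count is no independent evidence. The astrocyte list of 6 genes had 8.64 to 8.87, 8.34 to 8.43, 8.59 to 8.74 and 8.26 to 8.27. The microglial list was highest in the exposed inferior retina, as *Mt1* and *Mt2* were. The Müller glia and astrocyte lists also had their highest array there, at 10.80 and 8.87, with ranges that overlapped another group. The part of these lists in the values of *Mt1* and *Mt2* was not tested. Lists for vascular endothelium, choroid and sclera, rods, ganglion cells and lens had 0 genes past the test in either region.

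The genes whose values over the 8 arrays were most like each metallothionein were sought among 1051 genes with a mean log2 value of at least 6 and an SD of at least 0.2, as a description in which the highest of many correlations are high by choice. Closest to *Mt1* were *Lin7b*, a scaffold gene (r = 0.986), *Socs3* (r = 0.985), the motor protein gene *Myo5b* (r = 0.983), *Prtg* (r = 0.981) and *Tyrobp*, a signalling adaptor of myeloid cells (r = 0.98). Their inferior log2 changes were 0.57 to 1.23 and their superior ones 0.12 to 0.35, beside 0.65 and 0.08 for *Mt1*. Closest to *Mt2* were the lysosomal protease gene *Ctsd* (r = 0.989), *Naa35*, a subunit of an acetyltransferase (r = 0.987), *Gars*, a glycyl-tRNA synthetase gene (r = 0.986), the small GTPase gene *Rab31* (r = 0.985) and *Fcer1g*, an adaptor of Fc receptors (r = 0.982). Of these, *Fcer1g* passed the test in the inferior retina, at 1.29 (adjusted p = 0.00114), and the other 4 had log2 changes of 0.45 to 0.61 there with adjusted p from 0.0681 to 0.136. The correlations with *Mt3* were lower, led by the tetraspanin gene *Tspan4* and by *Myo1f*, both at r = 0.941. Of the 5 genes closest to *Mt3*, 0 passed in the inferior retina, against 0.492% of all probe sets.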

How the data were processed

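Retinal RNA of exposed and control mice was measured on 8 arrays, 2 for each of 4 groups. Per the methods, the authors imported the array files into Partek, corrected the background by RMA and summarized core probes by median polish, and the deposited values are log2 expression. Software versions and any scaling between arrays were not given in the sources used here. Values were used as deposited. The platform annotation lists 1 symbol for 21789 probe sets, several for 1621 and none for 5443, and only the first kind was used to name genes.

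A mean per group was fitted by limma 3.58.1 (R 4.3.3), on 4 residual degrees of freedom and a prior of 4.47, and Benjamini-Hochberg adjustment ran over 28853 probe sets. Exact permutation tests took all 70 splits of the arrays. The genes named were the metallothioneins, up to 4 genes of each of 17 lists that passed in the inferior retina (or else the one with the smallest p), the 5 genes most like each metallothionein, and 5 genes on each side of the cluster. Metallothioneins and lists were chosen with earlier results of these data known. The fit was tested on simulated data. Benjamini-Hochberg adjustment was added to the methods' t-test. Alternatives were leaving out each array, quantile normalization, centring arrays on their medians, a minimum mean of 6, 1-symbol probe sets, averaging the probe sets of a gene, only the arrays compared, the methods' t-test (the contrast without moderation), a trend of variance with level, a robust prior, replicate number as a block and, added after seeing the data, permutation within each region.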

Additional observations from a re-analysis of the deposited data

How the results depend on the processing

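Of 384 values of the metallothioneins under alternatives, 334 kept their direction and their side of the threshold, as did 1182 of 1296 values of the other named genes. Among these other genes 9 values changed sign, all in genes that missed the threshold in the main analysis. They were the superior value of *Kdr*, -0.01 with centring, and values without 1 array of *Cryba2* (inferior, -3.81 without control inferior replicate 1 to 0.10 without replicate 2) and of *Kdr* (-0.18 to 0.20), *Myo1f* (-0.0013 to 0.39), *Nrl* (-0.09 to 0.05) and *Slc30a1* (-0.10 to 0.08) in the superior retina. In the inferior retina the methods' t-test gave an adjusted p = 0.292 for the change of 1.27 of *Mt2* and 0.194 for that of 0.65 of *Mt1*, and with only the arrays compared *Mt1*, at 0.65, had 0.136. For the mean of both regions the t-test gave 0.284 for the 0.87 of *Mt2*, and the 0.37 of *Mt1* passed with a minimum mean of 6 (adjusted p = 0.0204), 1-symbol probe sets (0.0378), gene means (0.0355) and a variance trend (0.0051). Between exposed regions *Mt1* passed at 0.62 with centring (adjusted p = 0.0429), and at 0.63 with a minimum mean of 6 (0.0179), 1-symbol probe sets (0.0358), a variance trend (0.00333) and gene means (0.0331). *Mt2* passed there at 0.98 with centring (0.0446), and at 1.00 with a minimum mean of 6 (0.0229), 1-symbol probe sets (0.0371), a variance trend (0.00686) and gene means (0.0347). Neither gene passed there with quantile normalization (adjusted p = 0.0816 for each), by the t-test (0.382 for *Mt1* and 0.489 for *Mt2*) or with a robust prior (0.0604 and 0.0644). Both also missed with only the arrays compared (adjusted p = 0.154 for *Mt1*). The minimum mean, 1-symbol probe sets and gene means test fewer features, and for the other settings the cause was not tested.

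With the replicate number as a block, the difference of 1.00 between exposed regions passed for *Mt2* (adjusted p = 0.0248), and no other call of the 3 genes changed. Arrays of one number deviated from their group means with correlations of -0.021 to 0.144 between groups, so the numbers were not taken as pairs.

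The uncalled interaction of *Mt3* was -0.0021 with centring, and without 1 array it was -0.04 (control inferior replicate 1 or hyperoxia superior replicate 2), -0.08 (hyperoxia inferior replicate 2) or -0.13 (control superior replicate 2), in a range up to 0.14. The uncalled difference of *Mt1* between control regions ran from -0.0039, without control inferior replicate 2, to 0.14. Leaving out 1 array gave 0.58 to 0.72 for *Mt1* and 1.19 to 1.35 for *Mt2* in the inferior retina, 0.78 to 0.97 for *Mt2* over both regions, and, in the exact permutation tests, 0.68 to 1.09 for *Mt2*, 0.41 to 0.62 for *Mt2* minus *Mt1* and 0.56 to 0.91 for *Mt2* minus *Mt3*. Uncalled values of *Mt2* ran from 0.29 to 0.66 in the superior retina and from 0.02 to 0.38 between control regions. Splits kept within each region were an alternative chosen after seeing the data. With them the exact p was 0.0556 for the 0.87 of *Mt2* and for the 0.37 of *Mt1*. It was also 0.0556 for the 0.51 of *Mt2* minus *Mt1* and the 0.70 of *Mt2* minus *Mt3*, the smallest that 36 splits can give.

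Counts of probe sets past the threshold moved more. In the inferior retina 142 became 259 with a minimum mean of 6, 2 by the t-test, 39 with only the arrays compared, 374 with a variance trend, and 35 (without hyperoxia inferior replicate 2) to 168 with 1 array left out. In the superior retina 5 became 9 with 1-symbol probe sets or gene means, 12 with a minimum mean of 6, 0 by the t-test, 2 under the block, 21 with a trend and 0 to 3 with 1 array left out. The interaction count of 1 became 2 with a minimum mean of 6, 0 by the t-test, 3 with a trend and 1 to 30 with 1 array left out, the 30 without control inferior replicate 1. Between exposed regions 40 became 70 with a minimum mean of 6, 0 by the t-test, 22 with only the arrays compared, 25 under the block, 84 with a trend and 0 (without hyperoxia superior replicate 2) to 69 with 1 array left out. Between control regions 0 became 1 with 1-symbol probe sets, centring or gene means, and 0 to 53 with 1 array left out, the 53 without control inferior replicate 1. For the mean of both regions 164 became 270 with a minimum mean of 6, 2 by the t-test, 291 with a trend and 56 (without control superior replicate 2) to 156 with 1 array left out. With 2 arrays per group, differences of the size seen for *Mt3* lay within their intervals around 0.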
